A study of Mus musculus with 6 samples.

Results

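Cholesterol synthesis, uptake and trafficking were followed through 30 genes in the proximal epididymis of busulfan-treated and control mice. The genes were chosen by symbol from the pathway and comprise 19 synthesis enzymes, 5 genes of the sterol-sensing SREBP system, 3 sterol transport genes, both liver X receptors and the lipoprotein receptor gene Scarb1. All 30 were found among the 24346 genes of the deposited table, and the mean of each was at least 1 FPKM, the minimum for a test. The members were chosen with earlier results of these data known, so their counts describe the pathway and are no independent test of it.

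Poly(A) RNA was sequenced from the initial segment and caput, the part of the duct nearest the testis, of wild-type mice aged 12 weeks. Busulfan, an alkylating agent toxic to spermatogonia, was injected intraperitoneally in the treated group (3 libraries), and the solvent dimethyl sulfoxide (DMSO) in the control group (3 libraries). Neither dose nor time of collection is stated in the labels, and nothing says that each library is a separate mouse, so p-values measure the spread between these libraries, which may be technical in part. Direct effects of busulfan on epididymal cells and effects that follow from fewer germ cells cannot be told apart here.

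Cells make cholesterol from acetyl-CoA through mevalonate, isoprenoid diphosphates, squalene and lanosterol, and most genes of this route are activated by SREBP transcription factors when membrane sterol is low. Liver X receptors are activated by oxidised sterols and raise genes of sterol export. The sterol content of the sperm membrane changes during passage through the epididymis, and mice without both liver X receptors develop lipid accumulation in the caput with age.

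Values are the authors' normalized FPKM (fragments scaled to transcript length and to the fragments of the library), so levels can be compared between genes. The summed FPKM of a library was 625087 to 666662 in the busulfan group and 707219 to 732495 in the DMSO group. The spacing of low values put the depth at roughly 11.3 to 12.9 M fragments per busulfan library and 12.3 to 13.2 M per DMSO library (M, mega), an estimate that also carries the authors' unknown normalization. Caput principal cell markers (Gpx5, Lcn5, Adam7, Clu, Aqp9 and Defb20) summed to 60658 to 63878 FPKM with busulfan and 57444 to 64085 with DMSO. Within that sum 4 markers fell and 2 rose (Lcn5 and Clu). Aqp9 was far lower than the others, with means of 20.2 FPKM with busulfan and 50.5 FPKM with DMSO. The 8 initial segment markers summed to 89.3 to 139 FPKM in the busulfan libraries and to 25105 to 26928 in the DMSO libraries, and all 8 fell. Lcn8 and Lcn9 made up most of the DMSO sum. Ros1 fell the least, with means of 33.7 FPKM with busulfan and 64.8 FPKM with DMSO.

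With busulfan more of these genes fell than rose. The 16 that fell were 12 enzyme genes and 4 SREBP genes, and the 6 that rose were Fdps, Ebp, Npc2, Stard4 and both liver X receptor genes. A gene was called when its limma p-value for log2(FPKM + 1), adjusted by Benjamini-Hochberg over all tested genes, was under 0.05, and 8 of the 30 were not called. The share of members that fell was 53.3%. Of all 12848 tested genes, 42.8% were called, 22.1% lower and 20.8% higher, so 6 rises among 30 members were near the share of all genes. Among members, 9 fell by 0.5 or more on the log2 scale, against 8.74% of tested genes, and 1 rose by as much, against 8.04%. The groups did not overlap for 23 members (76.7%), against 54.6% of tested genes. The median log2 change (busulfan minus DMSO throughout) was -0.23 over the members and -0.00338 over all tested genes. In bulk tissue, fewer cells of a type and less RNA per cell cannot be told apart.

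The counts depend on the scaling between libraries. After each library was rescaled to the same summed FPKM, 11 members were lower and 9 higher, while 12.4% of all tested genes were lower and 35.7% higher. That rescaling moved the median of all genes to 0.14 and that of the members to -0.08. The distance between the members' median and that of all genes was -0.22 as deposited and -0.21 after the rescaling.

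Most markers of endothelium and of fibroblasts fell in the same libraries, while 22.1% of all tested genes fell and 20.8% rose. Of 10 endothelial markers 9 fell and none rose (median log2 change -0.72), and they summed to 43.0 to 57.4 FPKM with busulfan and 85.3 to 99.2 FPKM with DMSO. Of 8 fibroblast markers 6 fell and none rose (median -0.71), with sums of 212 to 309 FPKM with busulfan and 369.9 to 466 FPKM with DMSO. No marker of either list was at 0 in every library. Of 8 macrophage and leukocyte markers, 1 fell (Csf1r), 1 rose (Cd68) and 6 did not pass, with sums of 115 to 147 FPKM with busulfan and 128 to 137 FPKM with DMSO. Their part in the results on the cholesterol genes was not tested, nor was that of the initial segment markers, all of which fell.

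**Figure D1:**
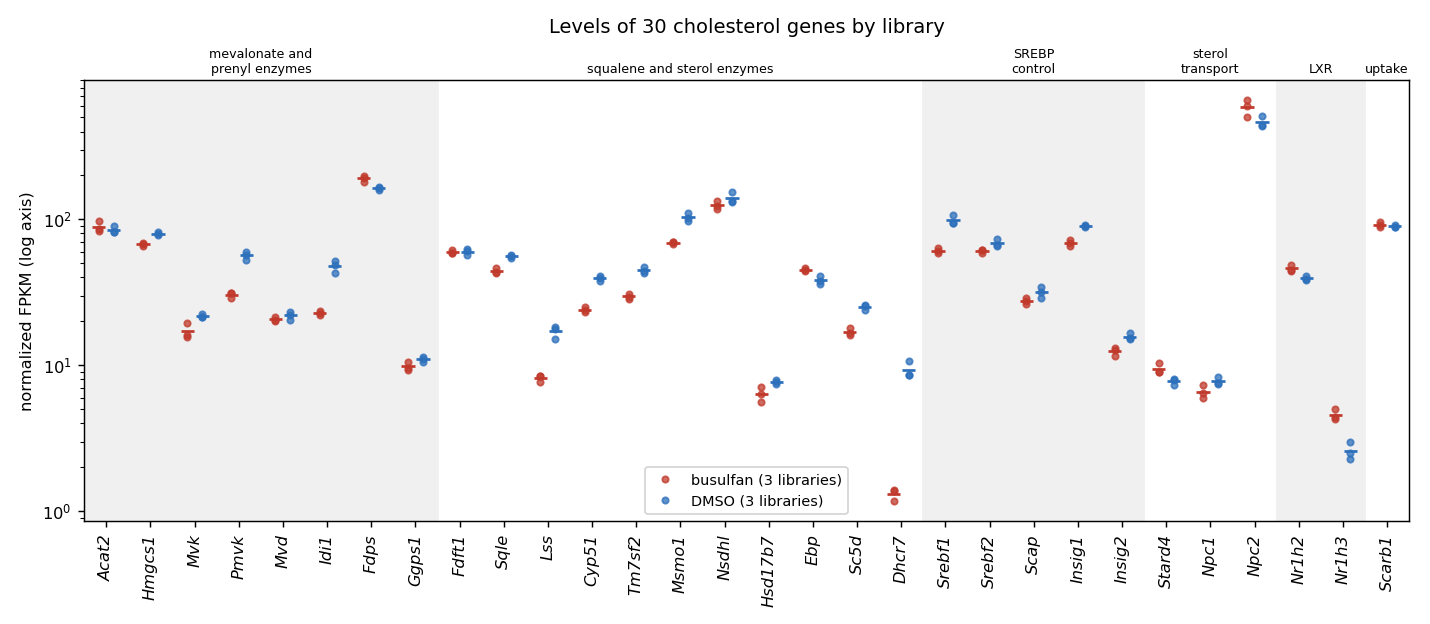
Normalized FPKM (log axis) of the 30 cholesterol genes, ordered by pathway role, with 1 point per library (busulfan left, DMSO right) and a bar at each group's mean. Npc2, Fdps and Nsdhl had the highest means in both groups, and Dhcr7 showed the widest gap on this axis, at 1.17 to 1.40 FPKM with busulfan and 8.51 to 10.6 FPKM with DMSO.

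The stretch from acetyl-CoA to the prenyl diphosphates has 8 of the genes, of which 4 fell, 1 rose and 3 were not called. Among all tested genes 22.1% fell and 20.8% rose. Their summed level was 449, 433 and 463 FPKM in the busulfan libraries and 480.3, 483 and 496 FPKM in the DMSO libraries. The sum was 92.2% of the DMSO mean with busulfan, and the median log2 change was -0.20. The groups did not overlap in this sum as deposited, but its direction turned with the scaling. With each library rescaled to the same summed FPKM, the sums were 489, 459.6 and 474 FPKM with busulfan and 447, 466 and 471 FPKM with DMSO, and the groups overlapped. Under that scaling 2 of the 8 genes were lower (Pmvk and Idi1) and 2 were higher (Fdps and Acat2), against 12.4% and 35.7% of all tested genes.

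Idi1 (chromosome 13, 8885501 to 8892451 on GRCm38), the isomerase that interconverts the first pair of isoprene units, fell the most in this stretch. It stood at 22.1, 23.6 and 22.9 FPKM in the busulfan libraries and at 42.7, 48.5 and 51.8 FPKM in the DMSO libraries. Every busulfan library lay below every DMSO library. Its mean was 22.9 ± 0.790 FPKM with busulfan and 47.7 ± 4.61 FPKM with DMSO (SD, n = 3 each), a log2 change of -1.02 ± 0.0739 (SE; limma adjusted p = 1.95e-05).

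Pmvk (chromosome 3, 89454541 to 89469013), which encodes phosphomevalonate kinase, fell to 53.9% of its DMSO level. Its values were 31.3, 28.9 and 31.3 FPKM with busulfan and 53.0, 56.8 and 59.9 FPKM with DMSO, with a wide gap between the groups. The log2 change was -0.87 (95% interval from limma -1.01 to -0.73; adjusted p = 1.68e-05).

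Smaller falls were called for earlier steps. Hmgcs1, the HMG-CoA synthase (chromosome 13), stood at 65.6, 67.3 and 68.9 FPKM with busulfan and 77.8, 81.5 and 79.3 FPKM with DMSO, without overlap (log2 change -0.24; limma adjusted p = 0.00366). Mvk, mevalonate kinase, was at 15.6, 16.04 and 19.6 FPKM with busulfan and 21.4, 22.4 and 21.3 FPKM with DMSO, and busulfan replicate 3 lay closest to the DMSO group (limma adjusted p = 0.0135). Its call did not hold without busulfan replicate 2 (adjusted p = 0.0509). Both calls were lost when libraries were rescaled to the same summed FPKM (limma adjusted p = 0.187 for Hmgcs1 and 0.0737 for Mvk).

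Fdps, the farnesyl diphosphate synthase, was the most abundant enzyme of the pathway and rose. It stood at 199, 181 and 193 FPKM with busulfan and at 163, 159 and 167 FPKM with DMSO, without overlap between the groups. The log2 change was 0.23 (95% interval 0.11 to 0.35; limma adjusted p = 0.00835). Another gene annotated on the same strand, Gm43738, shares 26.7% of the exonic bases of Fdps, so fragments of the pair may not be separable.

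Genes annotated on the opposite strand, Gm48342 and Gm48574, share 12.1% of the exonic bases of Hmgcs1 and 9.2% of those of Idi1, and the strand setting of the counting is not stated.

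The other members of this stretch did not pass. Mvd, mevalonate diphosphate decarboxylase, stood at 20.7 ± 0.644 FPKM with busulfan and 21.98 ± 1.37 FPKM with DMSO, with an interval of the log2 change from -0.22 to 0.06. Acat2, the cytosolic thiolase that starts the route, stood at 88.7 ± 7.03 FPKM with busulfan and 84.8 ± 4.16 FPKM with DMSO (interval -0.09 to 0.22), and was called higher with equal summed FPKM (log2 change 0.22; limma adjusted p = 0.00832). Its neighbour Acat3, a closely related copy, was at 32.5 ± 2.17 FPKM with busulfan and 23.3 ± 2.91 FPKM with DMSO (limma adjusted p = 0.00373), and fragments may have been divided between the pair. Ggps1, which makes geranylgeranyl diphosphate for protein prenylation and not for sterols, stood at 9.83 ± 0.698 FPKM with busulfan and 11.02 ± 0.429 FPKM with DMSO (limma adjusted p = 0.106). Part of its exons (5.4%) overlap Arid4b on the opposite strand.

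From squalene to cholesterol, 8 of 11 enzymes were lower, 1 was higher and 2 were not called (all tested genes: 22.1% lower, 20.8% higher). The summed level of the 11 was 425, 419 and 447 FPKM in the busulfan libraries and 529, 534 and 559 FPKM in the DMSO libraries. With busulfan the sum was 79.6% of the DMSO mean, and the median log2 change was -0.55. Of the 11, 6 fell by 0.5 or more on the log2 scale, against 8.74% of all tested genes. With equal summed FPKM, 7 were lower and 2 higher, and the sum was 88.8% of the DMSO mean, still without overlap.

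Dhcr7 (NCBI gene 13360; chromosome 7, 143823145 to 143848410), the reductase that converts 7-dehydrocholesterol to cholesterol, had the largest log2 change of the 30. It stood at 1.40, 1.17 and 1.37 FPKM in the busulfan libraries and at 8.53, 10.6 and 8.51 FPKM in the DMSO libraries. The busulfan mean was 14.2% of the DMSO mean, and the spread within each group was small beside that gap. The log2 change was -2.14 ± 0.103 (SE; limma adjusted p = 1.94e-06), a scale that understates the change of low genes. At the estimated depth and with the longest annotated transcript, these levels correspond to about 44 fragments per busulfan library and 336 per DMSO library. The nearest gene on the chromosome, Nadsyn1 (NAD synthetase, 296 bases away), stood at 1.78 FPKM with busulfan and 2.204 FPKM with DMSO and was not called (limma adjusted p = 0.186).

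The enzyme before it, Sc5d, a sterol desaturase (chromosome 9, 42251595 to 42264256), had a smaller change. It stood at 16.03, 16.5 and 17.9 FPKM with busulfan and at 23.97, 25.7 and 25.4 FPKM with DMSO, a log2 change of -0.55 (limma adjusted p = 0.000213). The groups did not overlap. The ratio of Dhcr7 to Sc5d within a library, which no linear scaling of a library alters, was 0.0780 ± 0.00847 with busulfan and 0.368 ± 0.0411 with DMSO.

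Lss (chromosome 10, 76531588 to 76557138), the cyclase that forms lanosterol, fell to 47.9% of its DMSO level. Its values were 8.47, 7.70 and 8.45 FPKM with busulfan and 15.3, 17.8 and 18.4 FPKM with DMSO. All busulfan libraries lay below all DMSO libraries, and the log2 change was -0.98 (95% interval -1.16 to -0.79; limma adjusted p = 4.17e-05). Sqle, the squalene epoxidase that supplies its substrate, stood at 43.0, 43.5 and 46.3 FPKM with busulfan and 56.6, 56.2 and 54.6 FPKM with DMSO (log2 change -0.33; limma adjusted p = 0.00105). Fdft1, squalene synthase, stood at 59.8 ± 1.33 FPKM with busulfan and 59.7 ± 2.83 FPKM with DMSO. Its interval was -0.12 to 0.12, and with equal summed FPKM it was called higher (log2 change 0.16; limma adjusted p = 0.0284). Of its exonic bases, 18.3% overlap Ctsb on the opposite strand (133 FPKM with busulfan and 111 FPKM with DMSO), whose fragments cannot be separated if strand was ignored in counting.

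Enzymes of the demethylation steps after lanosterol also fell. Cyp51, the lanosterol demethylase (chromosome 5, 4081145 to 4104746), stood at 24.9, 23.1 and 24.1 FPKM with busulfan and at 38.1, 39.9 and 40.7 FPKM with DMSO. No busulfan library reached the lowest DMSO library, and the log2 change was -0.70 (95% interval -0.82 to -0.58; limma adjusted p = 2.49e-05). Tm7sf2, a sterol reductase that follows it, was at 28.6, 29.4 and 31.0 FPKM with busulfan and 44.3, 46.9 and 43.0 FPKM with DMSO (log2 change -0.58; limma adjusted p = 9.83e-05). It shares 12.1% of its exonic bases with Vps51 on the same strand. Msmo1, the methylsterol oxidase, was at 67.4, 70.3 and 70.4 FPKM with busulfan and 102, 98.0 and 110.3 FPKM with DMSO (log2 change -0.57; limma adjusted p = 0.000105).

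Nsdhl and Hsd17b7 act with Msmo1 in removing the methyl groups. Nsdhl, the most abundant enzyme of this stretch, was at 124, 117 and 135 FPKM with busulfan and 132, 135 and 154 FPKM with DMSO. The groups overlapped, and the change did not pass (limma adjusted p = 0.117). Hsd17b7 stood at 5.58, 6.39 and 7.05 FPKM with busulfan and 7.43, 7.91 and 7.63 FPKM with DMSO, and its call was marginal (limma adjusted p = 0.0492). It was lost without busulfan replicate 1, busulfan replicate 2 or any 1 DMSO library (adjusted p of 0.0792 to 0.132). The call was also lost with equal summed FPKM (log2 change -0.10; limma adjusted p = 0.324). Quantile normalization, no filter on low values, no trend and the replicate block lost it too (limma adjusted p of 0.0522 to 0.0849).

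Ebp, the isomerase between the demethylation steps and Sc5d, rose. Its values were 46.4, 44.8 and 44.4 FPKM with busulfan and 37.9, 35.8 and 40.7 FPKM with DMSO, with no overlap (log2 change 0.24; 95% interval 0.11 to 0.37; limma adjusted p = 0.0105). The ratio of Dhcr7 to Ebp was 0.0290 ± 0.00259 with busulfan and 0.244 ± 0.0470 with DMSO.

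**Figure D2:**
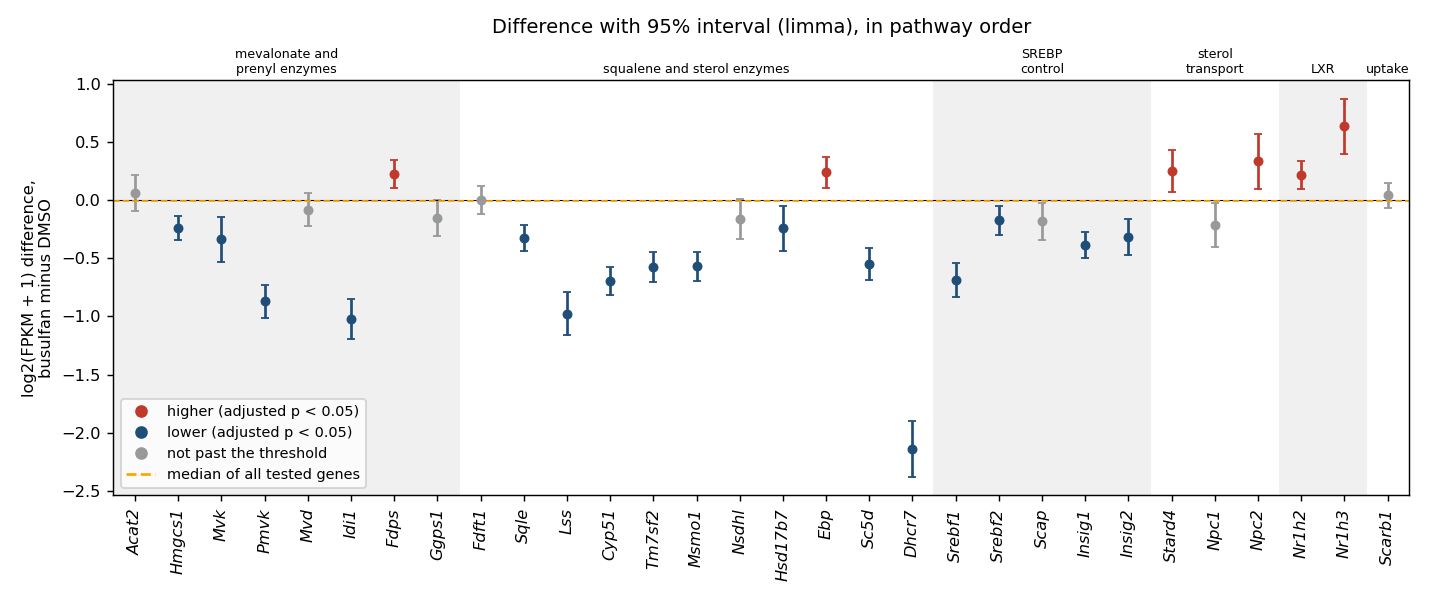
Log2(FPKM + 1) difference, busulfan minus DMSO, of each gene in pathway order, with the 95% interval from limma and the median of all tested genes (-0.00338) as a dashed line. Of the 19 enzymes, 12 were lower, 2 higher and 5 not past the threshold, and Dhcr7 lies farthest from 0 at -2.14.

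The SREBP system senses sterol in the endoplasmic reticulum: Scap escorts SREBP precursors to the Golgi for cleavage, and Insig proteins hold Scap back when sterol is plentiful. Of its 5 genes, 4 fell, none rose and Scap did not pass, while 22.1% of all tested genes fell. In each of the 5 every busulfan library lay below every DMSO library. Groups that do not overlap, in either direction, were found for 54.6% of all tested genes. Their log2 changes ran from -0.69 to -0.17, with a median of -0.32. With equal summed FPKM, 2 of the 5 were lower (Srebf1 and Insig1), against 12.4% of all tested genes.

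Srebf1 (NCBI gene 20787; chromosome 11, 60199089 to 60222581), whose products chiefly drive fatty acid synthesis, had the lowest log2 change of these. It stood at 58.4, 61.0 and 63.3 FPKM with busulfan and at 94.0, 107 and 94.9 FPKM with DMSO. The log2 change was -0.69 ± 0.0637 (SE; limma adjusted p = 8.02e-05). Srebf2, which encodes the main activator of cholesterol synthesis, stood at 62.1, 58.5 and 61.6 FPKM with busulfan and 66.0, 73.0 and 66.9 FPKM with DMSO. Its log2 change was -0.17 (limma adjusted p = 0.0353), and leaving out any library except DMSO replicate 1 lost the call (adjusted p of 0.0502 to 0.127). After rescaling to the same summed FPKM its log2 change was -0.02 (limma adjusted p = 0.851). The ratio of Srebf1 to Srebf2 was 0.941, 1.04 and 1.03 in the busulfan libraries and 1.42, 1.47 and 1.42 in the DMSO libraries, so the pair stood at nearly equal levels in busulfan libraries and Srebf1 was the higher in DMSO libraries.

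Both Insig genes fell. Insig1, itself a target of SREBP factors, stood at 69.3, 65.7 and 71.7 FPKM with busulfan and 91.9, 89.5 and 89.3 FPKM with DMSO (log2 change -0.38; limma adjusted p = 0.000454). Insig2 stood at 11.6, 13.1 and 12.7 FPKM with busulfan and 15.4, 15.1 and 16.7 FPKM with DMSO (log2 change -0.32; limma adjusted p = 0.00614). The call for Insig2 was lost after rescaling to the same summed FPKM (adjusted p = 0.0695). The ratio of Insig1 to Insig2 was 5.56 ± 0.488 with busulfan and 5.75 ± 0.352 with DMSO, and the groups overlapped. Scap was at 26.5, 27.6 and 28.8 FPKM with busulfan and 28.95, 34.2 and 31.6 FPKM with DMSO (limma adjusted p = 0.0629; 0.0248 without DMSO replicate 1), and 13.2% of its exonic bases overlap a gene on the opposite strand.

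**Figure D3:**
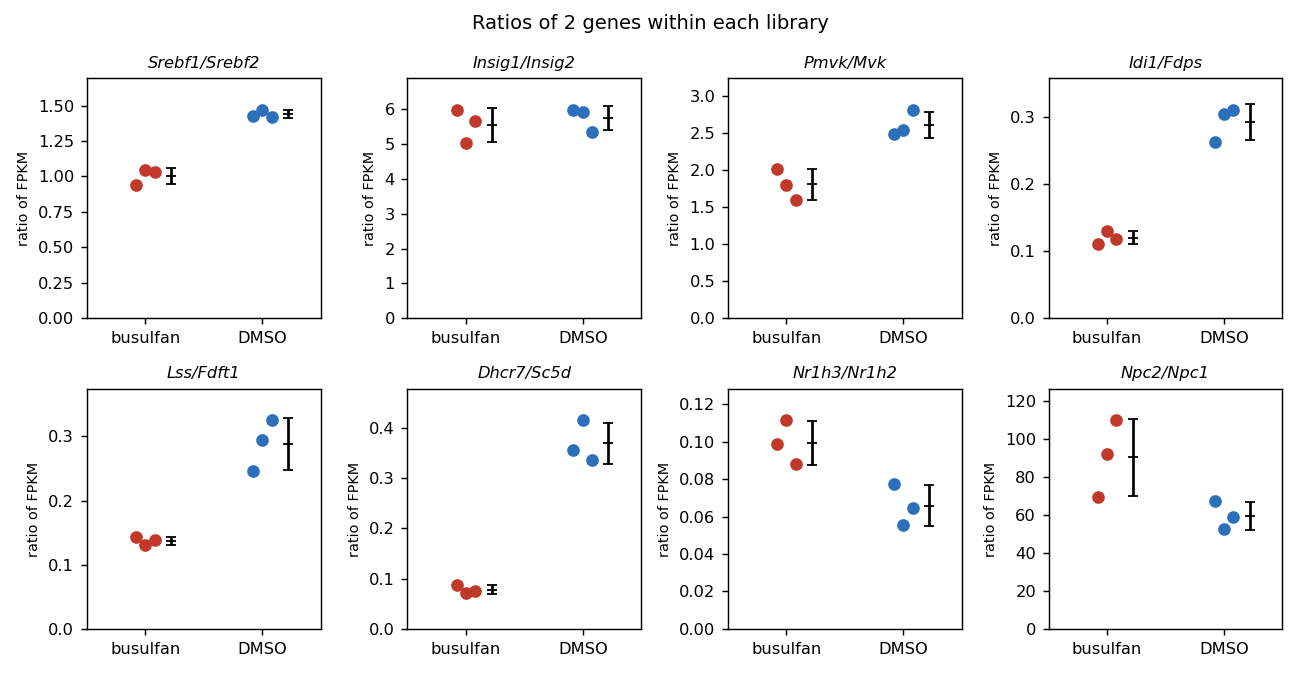
Ratio of the FPKM of 2 genes within each library (points), with the mean ± SD of each group (bars, n = 3 each) on axes that start at 0. Dhcr7/Sc5d, Lss/Fdft1, Idi1/Fdps, Pmvk/Mvk and Srebf1/Srebf2 were lower in every busulfan library than in any DMSO library, Nr1h3/Nr1h2 and Npc2/Npc1 were higher, and Insig1/Insig2 overlapped.

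Promoter sequence is shown because most genes of the synthesis route are controlled by SREBP factors. These bind sterol regulatory elements beside CCAAT boxes, the binding letters of the factor NF-Y. Promoter windows (250 bases before to 50 after an annotated start, RefSeq, GRCm38.p6) were found for 24 of the 30 genes, in 33 windows. Fdft1, Fdps, Npc1, Scarb1, Sqle and Stard4 had no entry. Letters of a sterol regulatory element (TCACNCCA, either strand) were in 3 of the 24, against 4.97% of all 27025 genes with an entry and 4.31% of the tested ones. The lines below give each match in capitals, read 5′ to 3′ along the gene's strand, with 20 bases on either side.
Hmgcs1, chr13:119690194-119690241, plus strand: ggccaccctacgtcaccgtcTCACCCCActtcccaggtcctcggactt
Msmo1, chr8:64733728-64733775, minus strand: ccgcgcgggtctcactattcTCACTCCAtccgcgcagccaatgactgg
Srebf2, chr15:82147087-82147134, plus strand: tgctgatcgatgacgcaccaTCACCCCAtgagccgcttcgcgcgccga
In Hmgcs1 and Srebf2 the matched letters were TCACCCCA and in Msmo1 TCACTCCA, at 177 to 130 bases before the start in these promoters. Hmgcs1 and Msmo1 fell with busulfan, as did Srebf2, whose call was lost under 9 of the alternatives. Of the 24 members with an entry 15 fell, so no link between these letters and a fall is read from so few promoters.

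The letters CCAAT, on either strand, were in 20 of the 24 genes, against 41.1% of all genes with an entry and 42.6% of the tested ones. The 2 motifs can share the letters CCA, but their matches did not overlap in the 3 promoters above. CCAAT was present in 15 of 16 enzyme genes with an entry and in 5 of the 8 other members. It was in 15 of 15 members that fell, in 2 of 4 that rose (Ebp and Npc2) and in 3 of 5 that did not pass. Among enzymes that did not fall, Mvd, Ggps1, Nsdhl and Ebp also held it and Acat2 did not. Shares by call were not computed over all genes, so no link between CCAAT and a fall is read from this split. A match of so few letters describes the sequence and is not a binding site, and genes with several annotated starts had more chances to hold one. The lines below show matches, in capitals as CCAAT or its reverse complement, for the 8 enzymes that fell by 0.5 or more on the log2 scale and for Ebp and Npc2, which rose.
Dhcr7, chr7:143830109-143830153, plus strand: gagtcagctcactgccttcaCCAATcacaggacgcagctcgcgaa
Idi1, chr13:8885541-8885585, plus strand: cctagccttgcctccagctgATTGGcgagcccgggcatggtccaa
Lss, chr10:76531523-76531567, plus strand: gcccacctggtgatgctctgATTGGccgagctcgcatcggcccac
Pmvk, chr3:89454385-89454429, plus strand: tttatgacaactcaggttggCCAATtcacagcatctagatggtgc
Cyp51, chr5:4104702-4104746, minus strand: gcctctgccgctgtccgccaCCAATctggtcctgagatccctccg
Msmo1, chr8:64733650-64733694, minus strand: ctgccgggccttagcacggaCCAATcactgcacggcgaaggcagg
Tm7sf2, chr19:6067873-6067917, minus strand: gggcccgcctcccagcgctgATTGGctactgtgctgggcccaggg
Sc5d, chr9:42264300-42264344, minus strand: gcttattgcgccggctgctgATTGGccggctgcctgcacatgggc
Ebp, chrX:8193543-8193587, minus strand: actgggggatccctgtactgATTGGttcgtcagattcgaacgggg
Npc2, chr12:84773163-84773207, minus strand: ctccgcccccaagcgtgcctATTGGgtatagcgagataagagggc
Of the 3 annotated Dhcr7 starts, the most downstream held both CCAAT matches. Its 250 upstream bases are printed with those of Hmgcs1, which held a sterol regulatory element and CCAAT letters together; matches to either motif are in capitals.
Dhcr7, chr7:143829964-143830213, plus strand: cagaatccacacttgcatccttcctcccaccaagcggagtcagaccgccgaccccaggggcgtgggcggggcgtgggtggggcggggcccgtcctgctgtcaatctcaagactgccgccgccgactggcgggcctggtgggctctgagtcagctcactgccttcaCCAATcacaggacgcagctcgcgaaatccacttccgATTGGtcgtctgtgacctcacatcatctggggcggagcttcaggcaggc
Hmgcs1, chr13:119690101-119690350, plus strand: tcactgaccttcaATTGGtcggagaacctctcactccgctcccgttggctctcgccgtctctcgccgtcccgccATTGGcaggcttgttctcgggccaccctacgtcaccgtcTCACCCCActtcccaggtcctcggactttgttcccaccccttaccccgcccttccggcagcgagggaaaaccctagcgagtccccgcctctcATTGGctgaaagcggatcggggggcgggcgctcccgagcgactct

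Liver X receptor genes both rose, while 20.8% of all tested genes rose. With equal summed FPKM both were again higher, against 35.7% of all tested genes. Nr1h3 (LXR alpha; NCBI gene 22259; chromosome 2, 91184061 to 91202834) was the least abundant of the 30 in DMSO libraries. It stood at 4.39, 5.04 and 4.26 FPKM with busulfan and at 2.97, 2.26 and 2.52 FPKM with DMSO, without overlap. The log2 change was 0.64 ± 0.103 (SE; limma adjusted p = 0.00158), a 1.76-fold rise of the mean. About 109 fragments per busulfan library and 66 per DMSO library stand behind it.

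Nr1h2 (LXR beta; chromosome 7, 44549616 to 44553951) was more abundant and rose less. It stood at 44.6, 45.2 and 48.4 FPKM with busulfan and 38.4, 40.8 and 39.0 FPKM with DMSO (log2 change 0.22; limma adjusted p = 0.0104). A processed pseudogene, Nr1h2-ps, is annotated and may share its fragments. The ratio of Nr1h3 to Nr1h2 was 0.0992 ± 0.0117 with busulfan and 0.0658 ± 0.0109 with DMSO.

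Sterol leaving lysosomes is handed from the soluble protein NPC2 to the membrane protein NPC1, and Stard4 carries sterol through the cytosol. NPC2 is also a major secreted protein of the epididymis in several mammals. Npc2 (chromosome 12, 84754562 to 84773152) was the most abundant of the 30 genes in both groups. It stood at 505, 594 and 656 FPKM with busulfan and at 509, 435 and 444 FPKM with DMSO. Busulfan replicate 1 lay just below DMSO replicate 1, so the groups overlapped, although the change passed the threshold (log2 change 0.33; limma adjusted p = 0.0293). That call was lost without busulfan replicate 2 or 3 or DMSO replicate 2 or 3 (adjusted p of 0.0699 to 0.0961).

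Npc1 stood at 7.28, 6.47 and 5.97 FPKM with busulfan and at 7.56, 8.28 and 7.50 FPKM with DMSO (log2 change -0.22; limma adjusted p = 0.0657). Without busulfan replicate 1 it passed as lower (adjusted p = 0.0288). The ratio of Npc2 to Npc1 was 69.4, 91.9 and 109.8 in the busulfan libraries and 67.2, 52.5 and 59.2 in the DMSO libraries. Stard4 was at 10.4, 8.97 and 8.93 FPKM with busulfan and 7.27, 8.03 and 7.97 FPKM with DMSO (log2 change 0.25; limma adjusted p = 0.0314). Its call was lost without busulfan replicate 1 or any 1 DMSO library (adjusted p of 0.0552 to 0.0925).

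Scarb1, the receptor through which cells take up cholesterol from high-density lipoprotein, did not pass. It stood at 95.8, 88.9 and 91.8 FPKM with busulfan and 88.9, 91.3 and 88.1 FPKM with DMSO, and the groups overlapped. The 95% interval of its log2 change was -0.07 to 0.15. After rescaling to the same summed FPKM it was called higher (log2 change 0.20; limma adjusted p = 0.0174).

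Related genes of lipid metabolism were counted in 7 lists drawn from textbook pathways. Their counts stand beside 22.1% of all tested genes called lower and 20.8% called higher. Fatty acid synthesis and desaturation had 15 tested genes, many of them SREBP targets: 7 were lower, 4 higher and 4 not called, and their median was -0.22. With equal summed FPKM 5 were lower and 6 higher, while 12.4% of all tested genes were lower and 35.7% higher. The larger side thus turned with a scaling that shifted all genes. The stearoyl-CoA desaturase gene Scd1 fell the most, at 27.3, 26.3 and 26.3 FPKM with busulfan and 100.5, 121 and 123 FPKM with DMSO (log2 change -2.06; limma adjusted p = 5.19e-07). The elongase gene Elovl6 stood at 42.0 ± 0.495 FPKM with busulfan and 83.1 ± 6.10 FPKM with DMSO, and Scd2 at 212 ± 9.19 FPKM with busulfan and 397 ± 20.4 FPKM with DMSO. The genes that rose were Acly, Gpam, Mid1ip1 and Lpin1, with log2 changes of 0.26 to 0.51, so the list did not move one way.

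The list of sterol efflux genes and liver X receptor targets also held the receptor partner genes Rxra and Rxrb. Of its 10 tested genes, 6 rose, 1 fell and 3 were not called, and their median was 0.20. The shares of all tested genes were 20.8% higher and 22.1% lower. The list is not complete: Srebf1 and Scd1, also targets of liver X receptors, are counted elsewhere and fell (log2 changes -0.69 and -2.06). The small GTPase gene Arl4c stood at 137 ± 8.81 FPKM with busulfan and 102 ± 5.11 FPKM with DMSO (log2 change 0.42; limma adjusted p = 0.00102). The receptor partner gene Rxra had a log2 change of 0.37, and Abca1, which exports cholesterol to apolipoproteins, rose by 0.30 (limma adjusted p = 0.0103). Abcg1, the other tested sterol exporter, fell to 3.97 ± 0.223 FPKM with busulfan, against 6.86 ± 0.587 FPKM with DMSO (log2 change -0.66; limma adjusted p = 0.00038).

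Of 15 branch and partner genes of the sterol route, 3 fell, none rose and 12 were not called (median -0.05). The falls were near the share of all tested genes (22.1%). With equal summed FPKM 1 was lower and 3 were higher, against 12.4% and 35.7% of all tested genes. Por, the reductase that supplies electrons to Cyp51 and Sqle, had a log2 change of -0.44 (limma adjusted p = 0.000501). Cyb5r3, which reduces the cytochrome b5 used by sterol oxidases, had a log2 change of -0.19 (limma adjusted p = 0.00781), and Nus1, a subunit gene of the dolichol-forming prenyltransferase, one of -0.21 (limma adjusted p = 0.0471). Of 12 other genes of the SREBP machinery, 3 fell, 2 rose and 7 did not pass (median -0.02), near the shares of all tested genes. Erlin1, which encodes a sterol-binding membrane protein, rose by 0.56 on the log2 scale, and the ubiquitin ligase gene Rnf145 and the membrane extraction factor gene Faf2 fell by 0.46 and 0.45.

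Of 5 tested genes of sterol ester storage and hydrolysis, 2 rose, 1 fell and 2 did not pass (median 0.19). Soat1, which esterifies cholesterol, stood at 11.2 ± 0.516 FPKM with busulfan and 6.81 ± 1.06 FPKM with DMSO (limma adjusted p = 0.00115). Plin2 also rose (log2 change 0.27), and Lipe fell (log2 change -0.36). Of 19 other sterol carriers, 4 fell, 2 rose and 13 did not pass (median -0.04). Among all tested genes 22.1% fell and 20.8% rose, so the falls of carriers were near the share of all genes. Gramd1b, a carrier of plasma membrane cholesterol to the endoplasmic reticulum, fell to 13.3, 14.98 and 15.3 FPKM with busulfan, against 37.2, 38.7 and 37.6 FPKM with DMSO (log2 change -1.33; limma adjusted p = 1.78e-06). In the same list Lamp1 rose (log2 change 0.44), and Tmem97 fell (log2 change -0.41). Of 6 tested genes of oxysterol and sterol hydroxylation, 1 fell (Hsd3b7, log2 change -0.58), 1 rose (Cyp39a1, 0.68) and 4 did not pass (median -0.02).

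**Figure D4:**
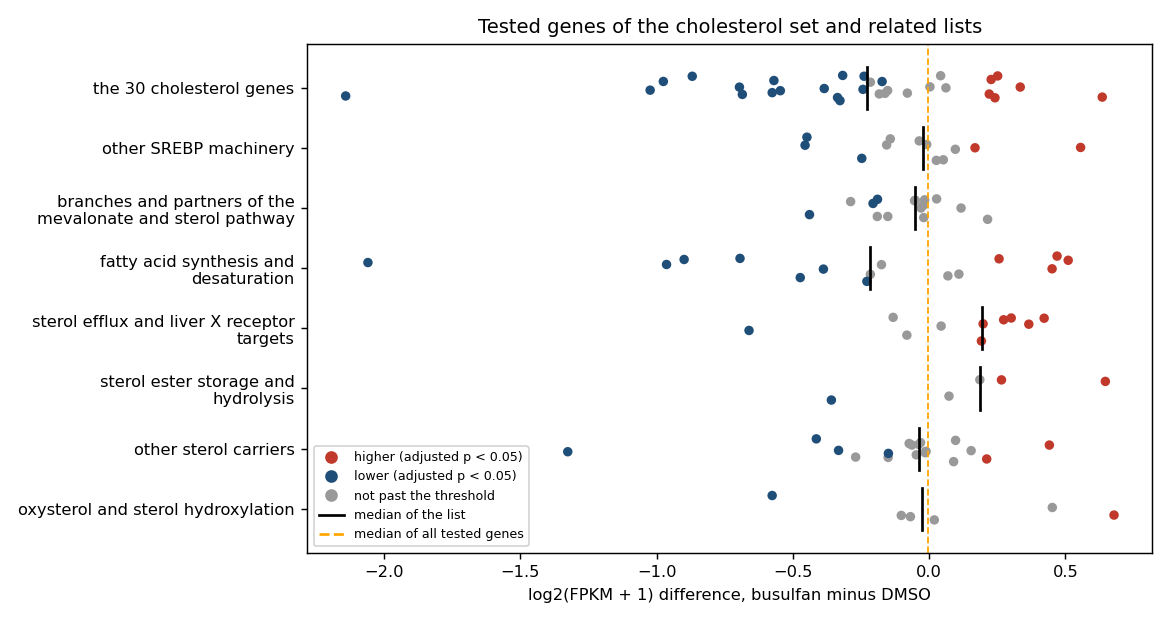
Log2(FPKM + 1) difference, busulfan minus DMSO, of each tested gene in the 30-gene set and 7 related lists, with a bar at each list's median. The fatty acid list spans -2.06 (Scd1) to 0.51 (Gpam), and the sterol efflux and liver X receptor target list has 6 genes higher and 1 lower.

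Among other epithelial and muscle markers, 1 of 4 tested clear cell markers fell and 2 rose (sums of 123 to 131 FPKM with busulfan and 102 to 109 FPKM with DMSO). Of 5 basal cell markers 2 fell and 2 rose (sums of 174 to 195 FPKM with busulfan and 160.1 to 175 FPKM with DMSO). Shares of all tested genes were 22.1% lower and 20.8% higher. Of the 6 caput principal cell markers, 4 fell and 2 rose. Only Actg2 fell among 6 smooth muscle markers, and the others did not pass (sums of 518 to 619 FPKM with busulfan and 1920.0 to 2067 FPKM with DMSO).

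Markers of tissues that make or store much sterol were low. The 8 adipocyte markers summed to 2.28 to 6.24 FPKM with busulfan and 4.57 to 9.55 FPKM with DMSO, and the defining genes Adipoq, Plin1 and Lep stayed under 1 FPKM in every library. The 7 Leydig cell markers summed to 5.11 to 7.03 FPKM with busulfan and 4.21 to 4.93 FPKM with DMSO, with Hsd3b1 and Hsd3b6 at 0 in every library and Cyp17a1 higher with busulfan (3.16 ± 0.374 against 2.05 ± 0.503 FPKM with DMSO; limma adjusted p = 0.0295). Of 7 tested spermatid and sperm transcripts, 5 fell, 1 rose and 1 did not pass, while 22.1% of all tested genes fell. The 8 in the list summed to 35.3 to 62.8 FPKM with busulfan and 63.8 to 81.4 FPKM with DMSO.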

How the data were processed

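The authors deposited normalized FPKM for 24346 genes in 6 libraries, and the unit is stated per the file headers. The submitters' processing notes list TopHat2 2.1.1, Cufflinks 2.2.1 and the build mm10 without saying how each was used. The kit was strand-specific for mRNA, per the labels' protocols. Annotation, strand setting and normalization between libraries are not given here, and a scaling by summed FPKM would shift all genes. No pair of libraries had identical values.

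The two-sided test was limma (3.58.1, R 4.3.3) with its intensity trend, fitted to log2(FPKM + 1) of the 12848 genes averaging 1 FPKM or more, and Benjamini-Hochberg adjustment ran over all of them. Intervals are 95% intervals from limma. The fit was tested on simulated data with these means and normal noise, its spread smoothed over the level of the genes (12848 genes). Called were 85 of 100 genes changed by 0.5 and 100 of 100 changed by 1 on the log2 scale, with 10 calls among 12648 unchanged genes. The changed genes were few and excluded the lowest levels, while 42.8% were called in the data. These rates therefore need not hold for the data.

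Per-library values are given for members past the threshold with an absolute log2 change of at least 0.5, or not overlapping with a mean of at least 50 FPKM, and for other members chosen after their values were seen. Of each related list up to 3 called genes with the largest changes were to be named. Outside this rule stand Abca1, Gpam, Mid1ip1, Acat3, Nadsyn1, Ctsb, Arid4b, Vps51, Acly, Lpin1, Cd68, Csf1r, Actg2 and Cyp17a1, whose values were already known. Members and lists were chosen with earlier results of these data known. Depth was estimated from 45 genes with a single long transcript whose low values were whole multiples of 1 step. Intervals do not cover an unknown normalization. Coordinates and exon overlaps came from GENCODE M21 (GRCm38), matched by symbol. A gene of 1 related list and a gene of 1 marker list are not reported here. Ufd1 and Spring1 were matched by NCBI gene number. Alternatives changed the pseudocount (0.1), the filter (none, or 5 FPKM), the scaling (quantile, equal sums, median ratio), the trend, the replicate block and single libraries. Plots used matplotlib 3.10.9 (Python 3.11.15).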

Additional observations from a re-analysis of the deposited data

How the results depend on the processing

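Of the 22 members called, 15 (11 lower and 4 higher) stayed past the threshold under every alternative in which they were tested, and none changed direction. Nr1h3 was not tested with a minimum of 5 FPKM. The other 7 (Hmgcs1, Mvk, Hsd17b7, Srebf2, Insig2, Stard4 and Npc2) lost the call under at least 1 alternative. The cause was not tested. Of the 8 not called, 5 (Acat2, Fdft1, Scap, Npc1 and Scarb1) passed under at least 1. The counts of members lower and higher were 16 and 6 with a pseudocount of 0.1 or the median ratio, 15 and 4 without a filter, 16 and 5 with a minimum of 5 FPKM, 14 and 8 after quantile normalization, 11 and 9 with equal sums and 14 and 6 without a trend. Over all tested genes, called genes were 2833 lower and 2668 higher, against 1588 lower and 4584 higher with equal sums. Leaving out 1 library gave 13 to 16 lower and 4 to 5 higher. With the replicate number as a block, 14 were lower and 4 higher. Same-numbered libraries deviated from their group means with correlations of -0.18, -0.02 and -0.17, and none of the 6 libraries correlated best with its own number, so the numbers were not read as pairs. Directions turned only for members that were not called. Mvd changed to 0.072 with equal sums and Fdft1 to -0.0026 with the median ratio. Without 1 library Fdft1 ran from -0.034 to 0.0325 and Acat2 from -0.0014 to 0.10. Counts of related lists moved by over 1.5 times under some alternatives, all by 1 to 3 genes. Dhcr7 with busulfan and Nr1h3 in both groups rest on the fewest estimated fragments of the 30.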
